A study of Homo sapiens with 10 samples.

Results

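The 10 genes described here encode GATA1 and the transcription factors that work with it in red cell precursors, together with GATA2. They were taken from the expression table by symbol (GATA1, GATA2, KLF1, TAL1, LMO2, LDB1, LYL1, NFE2, GFI1B and ZFPM1), and all 10 were found among its 23284 genes. K562 cells, an established human myelogenous leukemia line with erythroid features, were exposed for 48 h to vehicle (DMSO), to CBP30 at 2 or 5 µM, or to I-CBP112 at 2 or 5 µM before their polyadenylated RNA was sequenced. CBP30 and I-CBP112 both block the bromodomains of CREBBP and EP300, histone acetyltransferases that serve as coactivators of GATA1. Each of the 5 conditions has 2 samples, 10 in total, all of the same unmodified cell line. The paper calls them biological replicates, and nothing in the labels says that they came from separate experiments. The p-values therefore measure the spread between these samples, which may be partly technical. The question was how each factor responded to the dose of each inhibitor and whether the balance of GATA2 and GATA1 moved.

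GATA factors are zinc finger proteins that bind the GATA motif. In erythroid maturation GATA1 replaces GATA2 at many sites, and GATA1 is known to repress the GATA2 gene. At erythroid enhancers GATA1 sits next to the helix-loop-helix factor TAL1, and the adaptor proteins LMO2 and LDB1 hold them together. KLF1, NFE2 and GFI1B act downstream of and alongside this complex, and ZFPM1 (FOG1) is the cofactor that contacts the GATA1 zinc finger.

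Because many of these genes moved together, their promoters are shown where RefSeq (GRCh38.p14) gave one. The 250 bases before the transcription start were read for 8 of the 10 genes, in 11 entries, and none was matched for LMO2 and NFE2. The GATA word was searched on both strands as AGATAA or AGATAG, or with a T in first place as TGATAA or TGATAG. It occurred in 4 of the 11 entries, 1 each of KLF1, GFI1B, LYL1 and TAL1, and in 22.3% of all 35116 promoters of the same length. CACCC, the core of the element that KLF factors bind, occurred on either strand in 6 of the 11 entries, against 54.7% of all promoters. The KLF1 and GFI1B promoters are shown because both genes fell steeply, that of TAL1 because it was the factor that rose, and that of GATA1 because it has none of the GATA words in this window and CACCC at 4 places. Capitals mark the GATA words on either strand.
KLF1 promoter (GRCh38, chr19:12887202-12887451, minus strand): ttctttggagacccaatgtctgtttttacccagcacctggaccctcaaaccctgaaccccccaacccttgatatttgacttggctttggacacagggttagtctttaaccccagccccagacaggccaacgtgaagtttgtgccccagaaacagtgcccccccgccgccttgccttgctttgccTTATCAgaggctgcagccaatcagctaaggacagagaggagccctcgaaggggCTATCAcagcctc
GFI1B promoter, downstream entry (GRCh38, chr9:132978444-132978693, plus strand): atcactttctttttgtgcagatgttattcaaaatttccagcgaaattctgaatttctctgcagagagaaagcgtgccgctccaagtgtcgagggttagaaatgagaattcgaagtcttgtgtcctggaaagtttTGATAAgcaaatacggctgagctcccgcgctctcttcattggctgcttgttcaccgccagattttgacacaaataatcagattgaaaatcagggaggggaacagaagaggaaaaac
TAL1 promoter, upstream entry (GRCh38, chr1:47232336-47232585, minus strand): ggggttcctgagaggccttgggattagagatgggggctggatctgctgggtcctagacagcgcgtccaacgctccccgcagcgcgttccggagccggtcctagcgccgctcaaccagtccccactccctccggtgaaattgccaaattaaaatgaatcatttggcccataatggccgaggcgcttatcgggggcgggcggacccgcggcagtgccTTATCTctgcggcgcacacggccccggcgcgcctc
GATA1 promoter (GRCh38, chrX:48786340-48786589, plus strand): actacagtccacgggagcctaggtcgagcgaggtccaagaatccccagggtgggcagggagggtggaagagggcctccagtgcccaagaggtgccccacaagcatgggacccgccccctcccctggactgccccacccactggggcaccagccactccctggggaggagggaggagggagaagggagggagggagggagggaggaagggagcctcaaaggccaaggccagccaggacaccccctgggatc
In KLF1 the words lie 61 to 66 and 8 to 13 bases before the start, in GFI1B 111 to 116 bases before it and in TAL1 30 to 35 bases before it. A match of letters is a description of the promoter and says nothing about occupancy in these cells.

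Expression is given in FPKM, the fragments of a gene scaled by the size of its transcript and the reads mapped in each sample, as the authors deposited it. Differences are on the scale of log2(FPKM + 1), which understates changes of low genes, and were tested with limma over 12788 genes, those whose mean reached 0.5 FPKM, a filter that all 10 factors passed. A gene was called where its Benjamini-Hochberg adjusted p over all tested genes was under 0.05. The values hold no read counts, so the absolute depth is unknown, and relative depth estimated from the smallest steps of 607 long genes ranged from 0.914 to 1.08 between samples. Replicate 1 of 2 µM CBP30 stood apart: the shorter the transcript, the higher the gene was there relative to replicate 2 (Spearman's rho of −0.62 over genes), and EEF1A1 is listed at 0 there and between 5338 and 6661 FPKM elsewhere. Of 6 erythroid-like markers of K562, GATA1 among them, all were expressed, with a summed level of 1230 FPKM in both DMSO samples, 548 and 690 with 2 µM CBP30, 511 and 530 with 5 µM CBP30, 805 to 880 with 2 µM I-CBP112 and 796 to 853 with 5 µM I-CBP112. Markers of megakaryocytes summed to between 3.35 and 3.43 FPKM with DMSO, 1.45 and 1.53 with 2 µM CBP30, 1.43 and 1.64 with 5 µM CBP30, and 2.67 and 3.68 with I-CBP112, with 4 of 6 under 1 FPKM throughout and PF4 and GP9 at 0, and markers of monocytes and granulocytes to between 1.21 and 2.29. Those of lymphocytes summed to between 17.2 and 19.9 FPKM with DMSO, 23.6 and 31.0 with 2 µM CBP30, 27.5 and 30.2 with 5 µM CBP30, and 17.9 and 23.9 with I-CBP112, nearly all of it CD3D, while MS4A1 was at 0.

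CBP30 lowered most of the 10 factors, and 6 of the 8 that it lowered at 2 µM were lower again at 5 µM, whereas I-CBP112 lowered fewer and by less. After 2 µM CBP30, 8 of 10 were called lower and 0 higher, with 16.3% lower and 15.9% higher of all tested genes. Fitted on these 2 groups alone the calls numbered 4 (LMO2, LDB1, NFE2 and GFI1B), with 1.28% of all genes lower. After 5 µM CBP30, 8 were called lower and 1, TAL1, higher, with 25.4% and 21.2% of all genes called in these directions. I-CBP112 at 2 µM gave 2 lower calls (KLF1 and LMO2) and 0 higher, with 0.735% and 0.868% over all genes. I-CBP112 at 5 µM gave 6 (GATA2, KLF1, LMO2, LDB1, NFE2 and GFI1B) and 0, with 3.28% and 3.84%. The median log2 difference over the 10 factors was −0.88 for the lower and −1.41 for the higher dose of CBP30, and −0.28 and −0.41 for those of I-CBP112, while the median over all tested genes lay between −0.01 and 0.01 in each comparison. In bulk RNA, less of a transcript in each cell and fewer cells that express it cannot be told apart. Without replicate 1 of 2 µM CBP30 the lower calls numbered 8, 9, 6 and 7 in these comparisons, and the shares of all genes called lower moved with them, to 19.9%, 33.4%, 4.90% and 12.4%. Without replicate 2 of 2 µM CBP30 the lower calls were as many. Without any 1 of the other 8 samples fewer factors were called lower with 2 µM I-CBP112, and so were fewer of all genes. The same held for 5 µM I-CBP112 when 1 of the samples of DMSO or 5 µM I-CBP112 was left out.

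GATA1 itself (chrX:48644948-48652718 of GRCh37, plus strand) had the highest mean of the 10 with DMSO. It was at 170 and 171 FPKM with DMSO, 105 and 85.3 with 2 µM CBP30, 53.5 and 52.7 with 5 µM CBP30, and after I-CBP112 138 and 151 at 2 µM and 139 and 130 at 5 µM. Every treated sample was below both DMSO samples, the CBP30 doses did not overlap each other, and the I-CBP112 doses did. At 5 µM CBP30 31.2% of the DMSO level remained, a log2 difference of −1.66 (SE 0.10, adjusted p = 2.99e-05), and at 2 µM 56.0% (−0.84, adjusted p = 0.00128). I-CBP112 gave −0.24 at 2 µM (adjusted p = 0.353) and −0.34 at 5 µM (adjusted p = 0.0913), neither of which passed the test. Without replicate 1 of 2 µM CBP30, GATA1 passed with both doses of I-CBP112 (adjusted p = 0.0416 and 0.00712), at the same differences, and with the trend in transcript length removed it passed as well (0.0359 and 0.00295).

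GATA2 (chr3:128198270-128212044 of GRCh37, minus strand), the GATA factor of stem and progenitor cells, did not rise as GATA1 fell. It was at 37.6 and 35.7 FPKM with DMSO, 26.3 and 23.1 with 2 µM CBP30, 21.3 and 22.4 with 5 µM CBP30, and after I-CBP112 28.1 and 29.7 at 2 µM and 28.2 and 26.7 at 5 µM. All treated samples lay below both DMSO samples, with the CBP30 samples lowest. The log2 difference was −0.55 with 2 µM and −0.72 with 5 µM CBP30 (adjusted p = 0.00198 and 0.000273), and −0.33 and −0.40 with I-CBP112 (adjusted p = 0.0869 and 0.0209). From 2 to 5 µM CBP30 it moved by −0.17 (95% interval −0.34 to 0.003, adjusted p = 0.103), which did not pass. An antisense gene, GATA2-AS1, overlaps GATA2, and LMO2, TAL1, NFE2, GFI1B and ZFPM1 also overlap genes on the other strand. The sources used here do not say whether counting used strand, so reads of such a pair may have been counted together in these 6 factors.

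The ratio of GATA2 to GATA1 was higher in every CBP30 sample than with DMSO, since both genes were lower there and GATA1 by the larger fold. Both levels are per transcript length, so the ratio of FPKM values can be read between the genes. It was 0.221 and 0.209 with DMSO, 0.250 and 0.271 with 2 µM CBP30, 0.399 and 0.425 with 5 µM CBP30, and after I-CBP112 0.203 and 0.197 at 2 µM and 0.203 and 0.205 at 5 µM. All 4 CBP30 samples were above both DMSO samples and all 4 I-CBP112 samples below them, and the doses of CBP30 did not overlap. On the log2 scale CBP30 moved the ratio from its DMSO value by 0.28 at 2 µM and 0.94 at 5 µM, where it was 1.92 times that with DMSO, and I-CBP112 by −0.10 and −0.08. Without replicate 1 of DMSO the I-CBP112 differences were −0.062 and −0.033, and without replicate 2 of DMSO they were −0.15 and −0.12. With the length trend removed the 2 µM CBP30 difference was 0.42. With 2 samples against 2, the two-sided exact permutation test gave p = 0.333 for each of these 4 differences, the smallest it allows. Over the 3 doses, counting DMSO as 0, the log2 ratio changed by 0.19 per µM of CBP30 (two-sided exact permutation p = 0.0111, the smallest of 90 arrangements, 6 samples) and by −0.01 per µM of I-CBP112 (exact p = 0.311), which became −0.0023 without replicate 1 of DMSO. Over both doses, the CBP30 samples exceeded the I-CBP112 samples by 0.70 (exact permutation within dose, p = 0.0556, the smallest of 36 arrangements, 8 samples). Adjusted over the 7 tests of the ratio these exact p-values were 0.0778 for the CBP30 slope, 0.194 for the contrast of compounds and 0.333 for the others, so none passed. A higher ratio to GATA1 with 5 µM CBP30 was not particular to GATA2. It went from 0.323 with DMSO to 0.456 for LDB1 and from 0.0668 to 0.113 for ZFPM1. The ratio was higher for TAL1 and LYL1 too, and lower for KLF1, LMO2, NFE2 and GFI1B.

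**Figure D1:**
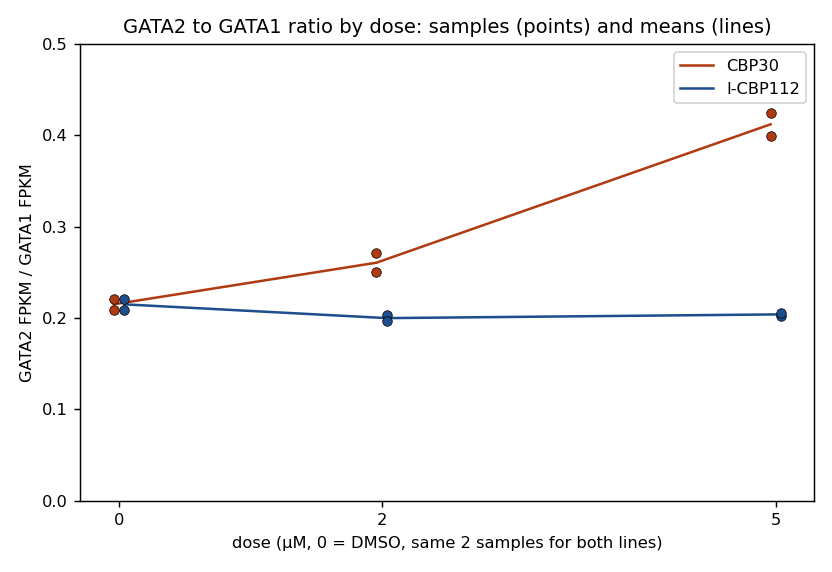
Ratio of GATA2 to GATA1 FPKM (y axis, no unit) against dose in µM (x axis) for each sample (points) and condition mean (lines), with the 2 DMSO samples drawn at 0 for both compounds. The CBP30 points climb to 0.399 and 0.425 at 5 µM, while the I-CBP112 points stay between 0.197 and 0.205.

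LMO2 and LDB1, which bridge the complex, both fell, and LMO2 fell most of the 10 factors. LMO2 (chr11:33880122-33913623, minus strand) was at 90.4 and 86.7 FPKM with DMSO, 20.6 and 17.7 with 2 µM CBP30, 8.23 and 7.69 with 5 µM CBP30, and after I-CBP112 48.5 and 48.3 at 2 µM and 34.9 and 34.7 at 5 µM. None of the 5 conditions overlapped another, and 9.0% of the DMSO level remained with 5 µM CBP30. The LMO2 differences were −2.16 at 2 µM and −3.32 at 5 µM CBP30 (adjusted p = 1.27e-05 and 4.05e-07) and −0.86 and −1.32 with I-CBP112 (adjusted p = 0.00368 and 0.000203), all called. Ranked by fall after 5 µM CBP30, LMO2 was at place 17 of 12788 tested genes, KLF1 at 39, GFI1B at 78, NFE2 at 99 and GATA1 at 137. LDB1 (chr10:103866246-103880125, minus strand) was at 56.1 and 54.1 FPKM with DMSO, 27.4 and 30.0 with 2 µM CBP30, 25.5 and 22.9 with 5 µM CBP30, and after I-CBP112 48.8 and 44.4 at 2 µM and 39.1 and 42.7 at 5 µM. Most of the LDB1 fall was already present at 2 µM CBP30 (−0.92 at 2 µM, −1.15 at 5 µM, adjusted p = 0.000425 and 6.05e-05), and the step between the doses did not pass (−0.24, adjusted p = 0.0555). LDB1 was called lower with 5 µM I-CBP112 (−0.42, adjusted p = 0.0277) and not with 2 µM (−0.24, adjusted p = 0.25).

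Of the helix-loop-helix factors, TAL1 rose with the higher dose of CBP30, and LYL1 passed the test in no treatment against DMSO. TAL1 (chr1:47681962-47697897, minus strand), the DNA-binding partner of GATA1 in the complex, was at 17.4 FPKM in both DMSO samples, 16.9 and 18.8 with 2 µM CBP30, 23.4 and 24.2 with 5 µM CBP30, and after I-CBP112 18.1 and 17.0 at 2 µM and 17.5 and 17.9 at 5 µM. Only the samples of 5 µM CBP30 were above all others. TAL1 rose by 0.43 with 5 µM CBP30 (95% interval 0.28 to 0.57, adjusted p = 0.00127). At 2 µM CBP30 it differed from DMSO by 0.03 (−0.11 to 0.18), and the I-CBP112 doses gave 0.01 (−0.13 to 0.15) and 0.02 (−0.12 to 0.17), none of which passed. LYL1 (chr19:13209847-13213975, minus strand), a close relative of TAL1, was at 111 and 98.2 FPKM with DMSO, 150 and 96.6 with 2 µM CBP30, 73.7 and 73.1 with 5 µM CBP30, and after I-CBP112 104 and 108 at 2 µM and 104 and 97.2 at 5 µM. The LYL1 samples of 5 µM CBP30 were below all others, yet its difference of −0.50 (−0.93 to −0.08) missed the threshold (adjusted p = 0.0548), and the other 3 differences ranged from −0.05 to 0.20. In some processing settings LYL1 was called lower with 5 µM CBP30. These were quantile normalization, the replicate block, only the groups compared, and removal of the length trend. The wide LYL1 interval goes with the 2 samples of 2 µM CBP30, which all comparisons share in 1 estimate of the spread. Without replicate 1 of 2 µM CBP30, or without replicate 2, LYL1 was called lower with 5 µM CBP30 at the same difference (adjusted p = 0.000797 and 0.000802). With CBP30, LYL1 passed GATA1 in level, since less of the DMSO level remained for GATA1 than for LYL1. Its FPKM was 0.613 of that of GATA1 with DMSO and 1.27 and 1.38 times that of GATA1 at the doses of CBP30, and TAL1 went from 0.102 to 0.448 of the GATA1 level with 5 µM CBP30.

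KLF1, NFE2 and GFI1B, factors that carry the erythroid program further, fell strongly with CBP30. KLF1 (chr19:12995236-12998015, minus strand), the activator of adult beta globin, was at 68.8 and 61.9 FPKM with DMSO, 25.8 and 18.5 with 2 µM CBP30, 8.40 and 8.49 with 5 µM CBP30, and after I-CBP112 35.7 and 37.9 at 2 µM and 29.8 and 29.0 at 5 µM. Its differences were −1.53 and −2.81 with CBP30 (adjusted p = 0.000419 and 1.44e-05) and −0.81 and −1.12 with I-CBP112 (adjusted p = 0.0405 and 0.00503). No 2 conditions overlapped in KLF1, but the call at 2 µM I-CBP112 was lost when any 1 sample other than those of 2 µM CBP30 was left out (adjusted p from 0.104 to 0.27). NFE2 (chr12:54685895-54694799, minus strand), which pairs with small MAF proteins at globin regulatory sites, was at 78.3 and 77.3 FPKM with DMSO, 34.2 and 26.7 with 2 µM CBP30, 19.6 in both samples of 5 µM CBP30, and after I-CBP112 52.9 in both samples at 2 µM and 48.5 and 47.1 at 5 µM. NFE2 differed by −1.33 and −1.93 with CBP30 (adjusted p = 0.000219 and 1.65e-05). For I-CBP112 the NFE2 difference was −0.55 at 2 µM (adjusted p = 0.0502, not called) and −0.69 at 5 µM (adjusted p = 0.00952). GFI1B (chr9:135819387-135867074, plus strand), a repressor needed for red cells and platelets, was at 34.5 and 33.6 FPKM with DMSO, 14.3 and 11.8 with 2 µM CBP30, 6.57 and 6.53 with 5 µM CBP30, and after I-CBP112 24.0 and 24.7 at 2 µM and 24.1 and 22.0 at 5 µM. The GFI1B differences were −1.32 and −2.21 with CBP30 (adjusted p = 0.000144 and 5.91e-06), and those for I-CBP112 were −0.47 at 2 µM (adjusted p = 0.0577, not called) and −0.54 at 5 µM (adjusted p = 0.0148). In the annotation TSC1 overlaps GFI1B on the other strand.

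ZFPM1 (chr16:88519688-88603439, plus strand) had the lowest level of the 10 with DMSO, and it was called lower with both doses of CBP30 and with neither of I-CBP112. It was at 11.8 and 10.9 FPKM with DMSO, 9.05 and 7.87 with 2 µM CBP30, 5.87 and 6.12 with 5 µM CBP30, and after I-CBP112 12.6 and 12.1 at 2 µM and 11.8 and 11.6 at 5 µM. The CBP30 samples were below both DMSO samples, and the I-CBP112 samples lay among them or above. ZFPM1 differed by −0.39 and −0.82 with CBP30 (adjusted p = 0.00799 and 0.000159) and by 0.10 (95% interval −0.07 to 0.28) and 0.04 (−0.13 to 0.21) with I-CBP112, and it was lower with CBP30 than with I-CBP112 by −0.50 at 2 µM and −0.86 at 5 µM (adjusted p = 0.00787 and 0.000363). The call at 2 µM CBP30 was lost with the length trend removed (−0.29, adjusted p = 0.0613) and without replicate 1 of DMSO (−0.34, adjusted p = 0.0596). ZFPM1-AS1 overlaps it on the other strand.

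**Figure D2:**
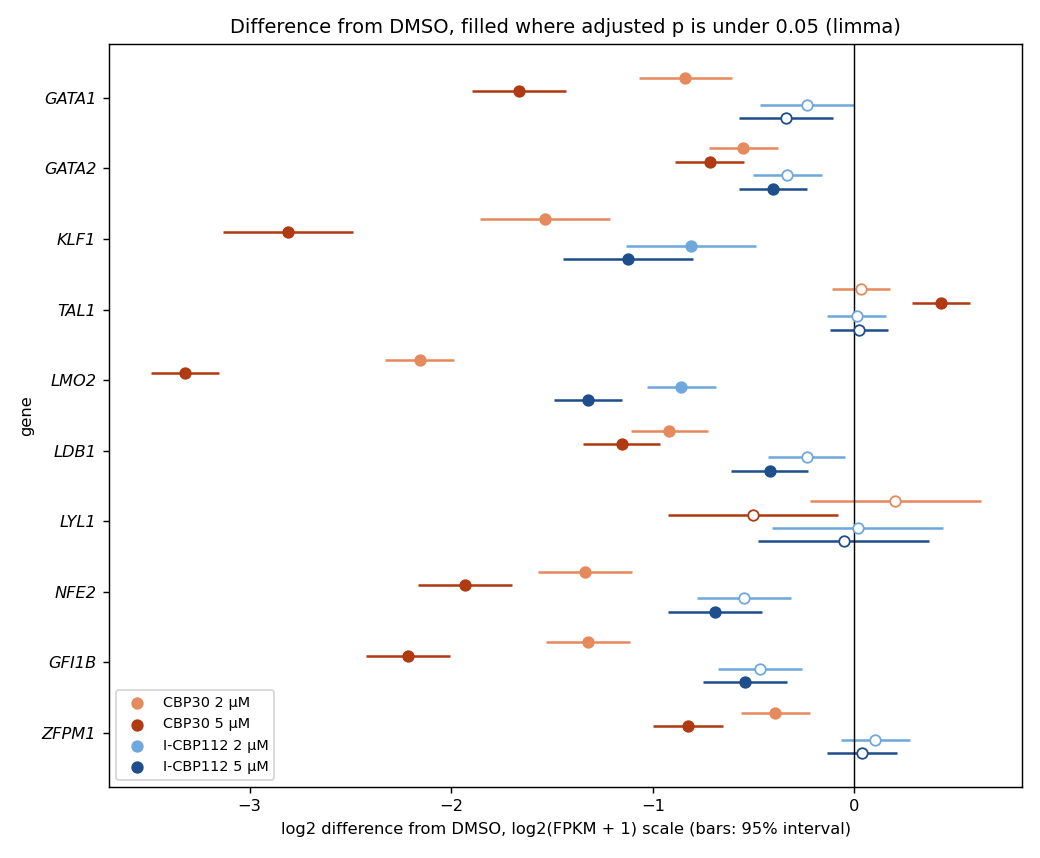
Log2 difference from DMSO on the log2(FPKM + 1) scale (x axis) for each of the 10 factors (y axis) and treatment (colours), with 95% intervals as bars and filled points where the adjusted p was under 0.05 in limma. LMO2 (−3.32) and KLF1 (−2.81) lie farthest left with 5 µM CBP30, and TAL1 (0.43) is the filled point to the right of 0.

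Raising CBP30 from 2 to 5 µM moved most of the factors again. Between these doses 7 of 10 were called lower and TAL1 higher, with 21.3% of all tested genes called lower and 17.6% higher. The steps were −1.28 for KLF1, −1.16 for LMO2, −0.89 for GFI1B, −0.82 for GATA1, −0.71 for LYL1, −0.60 for NFE2 and −0.43 for ZFPM1, and 0.40 for TAL1. GATA2 and LDB1 were the factors whose step did not pass. With the trend in transcript length removed, 7 were called lower and 1 higher, with 19.3% and 18.1% of all genes. The called steps were smaller then, except that of ZFPM1, which was larger. GATA1 was at log2 values of 6.48 and 6.42 with 2 µM and 5.89 and 5.87 with 5 µM CBP30 after that removal. Raising I-CBP112 from 2 to 5 µM gave 0 calls among the 10, with 0.00782% of all genes lower and 0.0547% higher in limma. The largest of these steps was that of LMO2 (−0.46, adjusted p = 0.198). Fitted on the 2 CBP30 groups alone, in place of all 5 groups, limma called 0 of the 10. Of all genes, 0.0313% were called lower and 0.0156% higher in that fit.

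At the same dose, CBP30 left most factors lower than I-CBP112 did. The paper describes I-CBP112 as the less potent inhibitor, and whether equal doses inhibited the bromodomains equally was not tested. At 2 µM 7 of 10 were called lower with CBP30 than with I-CBP112 and 0 higher, with 8.45% and 7.13% of all genes called. When 1 sample of 2 µM I-CBP112 was left out, fewer factors were called lower, and so were fewer of all genes. In the fit of all samples the exceptions were TAL1 (0.02, 95% interval −0.12 to 0.17), LYL1 (0.19, −0.24 to 0.61) and GATA2 (−0.22, −0.39 to −0.05, adjusted p = 0.0802). At 5 µM 8 were called lower and TAL1 higher, with 17.9% and 13.6% of all genes, and LYL1 was the exception (−0.45, −0.87 to −0.03, adjusted p = 0.0995). GATA1 was lower with CBP30 than with I-CBP112 by −0.60 at 2 µM and −1.32 at 5 µM (adjusted p = 0.011 and 0.000225). GATA2 was lower by −0.31 at 5 µM (adjusted p = 0.0169). The largest of these differences was that of LMO2, −1.30 at 2 µM and −2.00 at 5 µM. Fitted on the 2 groups alone, limma called 0 of the 10 at 2 µM and 10 at 5 µM. In these fits 0.0704% of all genes were called lower and 0.0391% higher at 2 µM, and 27.6% and 23.7% at 5 µM.

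The dose step of CBP30 was compared with that of I-CBP112 directly, as an interaction. In 4 factors the CBP30 step was called lower, GATA1 (−0.72), KLF1 (−0.96), LMO2 (−0.70) and GFI1B (−0.82), with adjusted p of 0.0382, 0.042, 0.022 and 0.0236, and 0 were called higher, against 3.32% and 1.63% of all genes. LYL1 (−0.64, adjusted p = 0.131), TAL1 (0.38, 0.0527), NFE2 (−0.45, 0.0846) and ZFPM1 (−0.37, 0.0754) missed the threshold, and the difference in step was −0.10 for GATA2 and −0.05 for LDB1. The 4 calls were lost when any single sample of DMSO, 5 µM CBP30, 2 µM I-CBP112 or 5 µM I-CBP112 was left out. Fewer of all genes were called in those fits too. With the trend in transcript length removed, limma called 4 lower and 1 higher, with 4.76% and 3.61% of all genes. The differences of GATA1, KLF1, LMO2 and GFI1B were smaller in size then. Without replicate 1 of 2 µM CBP30 5 were called lower and 1 higher, with 9.88% and 7.80% of all genes. Without replicate 2 of that condition 7 were called lower and 1 higher, with 29.2% and 24.5% of all genes, so the member counts rose along with the calls over all genes.

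Across the 10 samples the factors split by pattern, described here by Pearson's r of log2(FPKM + 1) over samples that fall into 5 conditions and share their libraries. GFI1B followed GATA1 most closely of the other 9 (r = 0.993), with KLF1 (0.974), NFE2 (0.973), LMO2 (0.971), ZFPM1 (0.960), LDB1 (0.925) and GATA2 (0.895) after it, while TAL1 had a negative r (−0.910) and LYL1 was loosest (0.634). The mean of TAL1 was 137% of that with DMSO at 5 µM CBP30 and between 100.8% and 102.5% in the other treatments. A clear move opposite to GATA1 was thus seen at 5 µM CBP30 only. GATA2 ran closest to NFE2 (0.960) and KLF1 (0.955). Among the 8996 genes whose mean reached 5 FPKM, those most like GATA1 were a gene whose symbol the table holds as the date sep-05 (r = 0.997), TRIP13 (0.997), an ATPase of the spindle checkpoint, and PRMT5 (0.996), an arginine methyltransferase. TRIP13 went from 43.3 FPKM with DMSO to 28.2 with 5 µM CBP30 and PRMT5 from 70.2 to 43.5, smaller folds than that of GATA1. Those most like GATA2 were UCP2 (0.994), a mitochondrial carrier, ZFP36L2 (0.991), which binds AU-rich RNA, and HBZ (0.986), the embryonic zeta globin.

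Most erythroid genes fell with CBP30. Of 33 listed erythroid genes (globins, heme synthesis, membrane and receptor genes), 29 were tested. CBP30 at 2 µM lowered 18 and raised 2 of them, with 16.3% lower and 15.9% higher of all tested genes, and at 5 µM it lowered 22 and raised 3, with 25.4% and 21.2% of all genes. I-CBP112 lowered 3 and raised 0 at 2 µM (0.735% and 0.868% of all genes), and lowered 10 and raised 2 at 5 µM (3.28% and 3.84%). The list's median log2 difference was −0.67 and −0.82 for the doses of CBP30 and −0.27 and −0.33 for those of I-CBP112, against a median near 0 over all tested genes. HBZ was at 630 and 589 FPKM with DMSO and 80.7 and 88.4 with 5 µM CBP30 (log2 difference −2.84), with 276 and 244 after 5 µM I-CBP112 (−1.23). HBG2, a fetal gamma globin whose reads are hard to tell from those of HBG1, was at 442 and 435 FPKM with DMSO and 122 and 135 with 5 µM CBP30 (−1.77). BLVRB, a biliverdin reductase, fell by 1.73 and GYPC, glycophorin C of the red cell membrane, fell by 1.41 with 5 µM CBP30. The 3 that rose with 5 µM CBP30 were ALAD, an enzyme of heme synthesis (0.95), BCL2L1, which protects from apoptosis, and EPB41, a protein of the membrane skeleton. The summed level of the lymphocyte markers was higher and that of the megakaryocyte markers lower with both doses of CBP30 than with DMSO, as given above, and their part in these results was not tested.

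The other subunits and cofactors showed no common direction. Of 28 such genes, all tested, 2 µM CBP30 lowered 7 and raised 4, and 5 µM CBP30 lowered 10 and raised 9, with a list median of −0.01. Over all tested genes the shares were 16.3% lower and 15.9% higher at 2 µM and 25.4% and 21.2% at 5 µM, so these counts are a description and nothing particular to the list is read from them. I-CBP112 gave 0 calls at 2 µM and 2 in each direction at 5 µM, with 3.28% and 3.84% of all genes at the latter dose. CBFA2T3 (ETO2), a corepressor of the complex, went from 62.2 and 59.7 FPKM with DMSO to 18.6 and 17.6 with 5 µM CBP30 (−1.70), below every other sample. SSBP2, which binds and stabilizes LDB1, went the other way, from 8.09 and 9.16 FPKM to 21.4 and 22.7 (1.26). TCF3, an E protein that dimerizes with TAL1, fell by 0.79, and MAFF, a small MAF partner of NFE2, fell by 0.82, with 5 µM CBP30. The other E proteins of the list, TCF4 and TCF12, were named after their values were seen and did not fall. From DMSO to 5 µM CBP30 the mean of TCF4 went from 10.1 to 13.3 FPKM and that of TCF12 from 31.9 to 32.7. Of the targets of the inhibitors, both named after their values were seen, CREBBP differed from DMSO by 0.41 (adjusted p = 0.0826) and EP300 by 0.37 (adjusted p = 0.216) with 5 µM CBP30, and neither passed in any treatment against DMSO. Between 2 and 5 µM CBP30 both were called higher at the higher dose, CREBBP by 0.52 (adjusted p = 0.0442) and EP300 by 0.81 (adjusted p = 0.0292). These steps lean on replicate 1 of 2 µM CBP30, the sample that stood apart by transcript length. At that dose CREBBP was at 4.67 FPKM in replicate 1 and 7.35 in replicate 2, and EP300 at 3.92 and 7.66. No rise of either gene with dose is read from them.

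Relatives of the factors gave calls at 5 µM CBP30 about as often as all genes did. Of 16 listed, 10 passed the filter. At 5 µM CBP30 lowered 3 and raised 2 of these, with 25.4% and 21.2% of all tested genes, and at 2 µM it lowered 4 and raised 3, with 16.3% and 15.9%. I-CBP112 raised 1 at 2 µM (0.868% of all genes), and at 5 µM it lowered 2 and raised 2 (3.28% and 3.84%). GFI1, the paralog of GFI1B that is typical of myeloid and lymphoid cells, was at 1.94 and 1.69 FPKM with DMSO and at 4.01 and 3.66 with 5 µM CBP30 (0.78), and it was called higher in all 4 treatments. LMO4 rose by 0.47, KLF3 fell by 0.57 and NFE2L3 fell by 0.30 with 5 µM CBP30. Another list held 5 genes taken as lowered when GATA1 takes over from GATA2. CBP30 at 5 µM lowered MYC and MYB and raised KIT, with 25.4% of all genes called lower and 21.2% higher. SPI1 and HHEX were not called at that dose. At 2 µM CBP30 lowered 1 of the 5 and raised 2, with 16.3% and 15.9% of all genes. KIT, the stem cell factor receptor, was at 3.16 and 3.02 FPKM with DMSO and between 4.63 and 6.13 in the treated samples, and it was called higher in all 4 treatments (0.62 and 0.79 with CBP30, 0.61 and 0.63 with I-CBP112). MYB, which keeps progenitors dividing, fell by 0.49 with 5 µM CBP30, and its other differences were −0.08 for 2 µM CBP30 and 0.12 and 0.02 for the I-CBP112 doses. MYC, on the other hand, fell in all 4, by 2.00 on the log2 scale with 5 µM CBP30. For K562 the paper counts MYC among the genes that siRNA of GATA1 lowers, so its place in this list may not hold in this line.

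**Figure D3:**
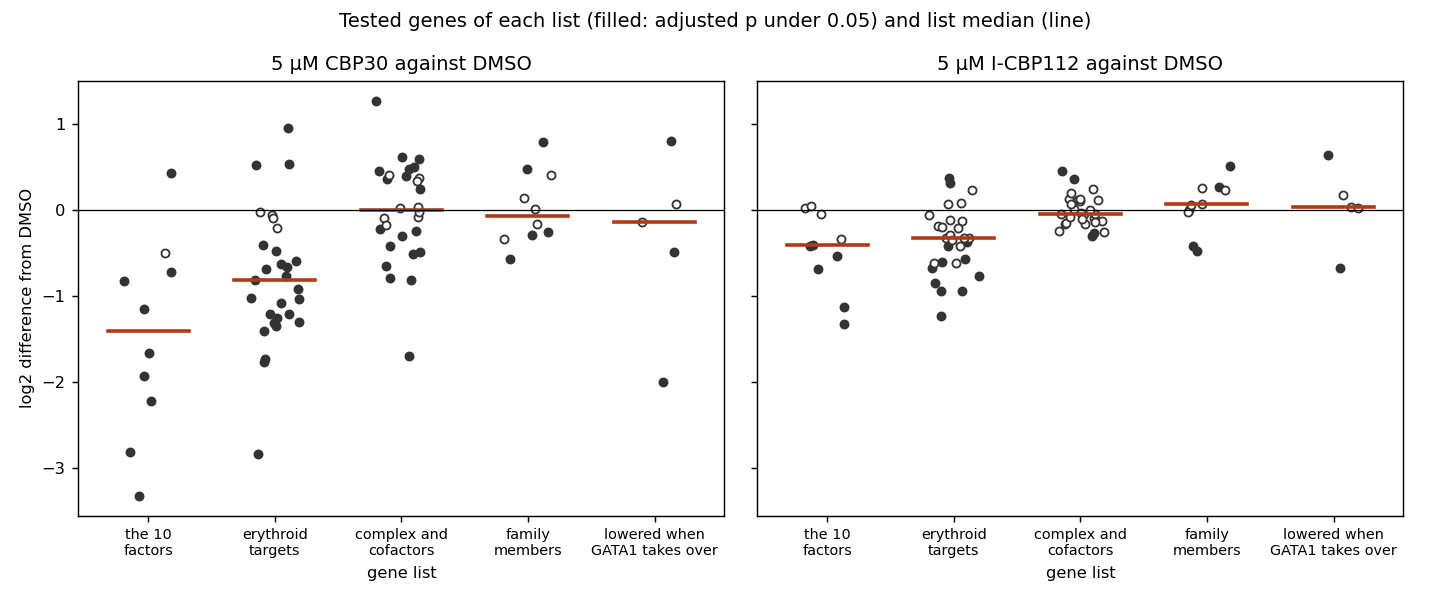
Log2 difference from DMSO (y axis) of the tested genes of each list (x axis), with 5 µM CBP30 on the left and 5 µM I-CBP112 on the right, filled where the adjusted p was under 0.05, with lines at the list medians. The 10 factors (median −1.41) and the erythroid genes (−0.82) lie mostly below 0 with CBP30, and the cofactors (−0.01) lie on both sides.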

How the data were processed

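RNA-seq of K562 cells after 48 h with DMSO, CBP30 or I-CBP112 was analysed, 2 samples in each of 5 conditions. The authors made stranded libraries from poly(A) RNA, sequenced single reads of 50 bases, processed them with Nextpresso on hg19 (GRCh37) and deposited FPKM values, 1 column per sample, without pooling replicates. The submitters' processing notes list FastQC, TopHat2 2.0.10, Bowtie 1.0.0, SAMtools 0.1.19, Cufflinks 2.2.1 and Cuffnorm. The gene annotation and whether counting used strand are not given in the sources used here. Where FPKM is scaled only to the mapped reads of a library, a change in a few abundant genes shifts the others. Whether Cuffnorm scaled the libraries in another way was not examined. The values carry no counting error. FPKM summed to between 547504 and 689095 per library.

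The test was limma 3.58.1 (R 4.3.3) on log2(FPKM + 1) (1 fit of 5 groups, eBayes with trend, 5 residual degrees of freedom plus 2.15 prior), for the 12788 genes whose mean reached 0.5 FPKM, with Benjamini-Hochberg adjustment. The GATA2 to GATA1 ratio was tested by exact permutation of samples. Positions and transcript lengths came from GENCODE on GRCh37, matched for 92.3% of genes, and promoters from RefSeq. Named are the 10 factors, for GATA1 and GATA2 the 3 genes most like each by r, and up to 4 called genes per list with the largest difference at 5 µM CBP30. Others are members of a small count or are said to have been chosen later. The members and lists were chosen with earlier results of these data known. Replicate numbers in the sample titles did not pair the samples (correlations of deviations from −0.0681 to 0.0939). Alternatives were a pseudocount of 0.1, no filter or one at 5 FPKM, median centring, quantile normalization, no trend, only the groups compared, the replicate block, removal of the length trend with and without the block, and leaving out each sample.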

Additional observations from a re-analysis of the deposited data

Results flagged for a closer look

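The step from 2 to 5 µM differed between the compounds in 4 of the 10 factors by the interaction test in limma (adjusted p under 0.05). Of all tested genes, 3.32% were called lower in this test and 1.63% higher. The CBP30 step minus the I-CBP112 step was −0.72 on the log2 scale for GATA1, −0.96 for KLF1, −0.70 for LMO2 and −0.82 for GFI1B. All 4 differences were smaller in size with the length trend removed. The calls fell to GFI1B and LMO2 without a filter on low genes or with the replicate block, where fewer of all genes were called too. They were lost when 1 sample of DMSO, 5 µM CBP30 or either dose of I-CBP112 was left out. Fewer of all genes were called in those fits as well. With 2 samples per condition, no condition was large enough for a test of single outlying samples.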

How the results depend on the processing

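Over the 9 comparisons, none of the 53 called differences of the 10 factors changed sign under the 10 processing settings or when each of the 10 samples was left out, and 10 of the 37 uncalled ones did in at least 1 setting. Under quantile normalization the LDB1 difference in dose step was 0.015. Leaving out 1 sample gave sign changes in uncalled values only. These ranged from −0.11 to 0.52 for LYL1 and from −0.040 to 0.10 for TAL1 with 2 µM CBP30, from −0.071 to 0.10 for LYL1 and from −0.032 to 0.053 for TAL1 with 2 µM I-CBP112, from −0.14 to 0.033 for LYL1 and from −0.014 to 0.091 for ZFPM1 with 5 µM I-CBP112, and from −0.029 to 0.055 for TAL1 in the I-CBP112 step. Between the compounds at 2 µM they ranged from −0.13 to 0.50 for LYL1 and from −0.050 to 0.093 for TAL1, and in the difference of steps from −0.13 to 0.022 for LDB1. Fitted on the compared groups alone, limma called 4 factors with 2 µM CBP30, 0 in the CBP30 step, 0 between the compounds at 2 µM and 0 in the difference of steps, with 8, 7 and 7 at an unadjusted p under 0.05 in the last 3. Of all genes, 1.28%, 0.0313%, 0.0704% and 0.524% were called lower in these comparisons, in the same order. For 2 µM I-CBP112 the calls numbered 1 without a filter, with median centring or with the replicate block, 6 with the length trend removed and 4 with the length trend removed and the block. Of all genes, 0.414% were called lower without a filter, 0.633% with median centring and 0.344% with the block. The share was 2.14% with the length trend removed and 1.54% with the block added, so it moved along with the calls. The I-CBP112 step gave 1 call with the length trend removed, with or without the block, where 0.0164% of all genes were called lower. The difference of steps gave 2 calls without a filter and 2 with the replicate block, with 1.39% and 1.05% of all genes called lower. Otherwise the block left each count of calls within 1.5 times its value. Leaving out 1 sample leaves its condition with 1 sample. In every comparison the number of factors called changed between those fits, and so did the share of all genes called. Nothing particular to the 10 factors is read from those counts. With the length trend removed, the log2 GATA2 to GATA1 ratio differed from DMSO by 0.42 with 2 µM and 0.83 with 5 µM CBP30. The replicate block cannot alter a difference of condition means in this balanced design, so it says nothing about the ratio differences. The cause of these shifts was not tested. Precision rests on 2 samples per condition, and FPKM gives no depth for single values.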
